A study of Homo sapiens with 6 samples.

Results

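The calcitonin peptide family was examined through 7 of its genes, the peptide genes CALCA, CALCB, ADM and ADM2 and the receptor genes CALCRL, RAMP1 and RAMP2. All 7 were found among the 23686 genes counted. CALCB was the starting point because it was 1 of the 5 largest increases among genes past the test with a mean of at least 5 CPM (scaled counts) and no overlap between the groups, and the other 6 genes were taken for their place in the same peptide and receptor family. CALCB was thus chosen by its own CPM difference between the groups, which is given as a description and carries no test.

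The cells were HEK293, a widely used cell line derived from human embryonic kidney. Each sample held cells with green fluorescent protein (GFP), collected by sorting for it. The co-culture group, with 3 libraries, spent 10 h with partner HEK293 cells that produced reactive oxygen species (ROS) through DAAO, usually D-amino acid oxidase, at 25 µM D-alanine. The control group, with 3 libraries, held sorted GFP-positive cells described as wild-type. All 6 samples carry the same treatment text, so whether the controls received D-alanine or grew beside partner cells is not given. No label says that the replicates were separate cultures, and p-values measure the spread between these libraries only.

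The peptides of this family are cut from larger precursors and secreted. CALCA is spliced into messages for calcitonin or for alpha-CGRP, CALCB encodes beta-CGRP, ADM encodes adrenomedullin and ADM2 encodes adrenomedullin 2 (intermedin). CALCRL is a receptor that reaches the cell surface with a receptor activity-modifying protein (RAMP): with RAMP1 it forms the CGRP receptor, and with RAMP2 or RAMP3 it forms adrenomedullin receptors. These receptors act mainly through the Gs protein, cyclic AMP (cAMP) and the transcription factor CREB.

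CALCA and CALCB are close copies, which bears on how reads can be assigned to either. The coding sequence of the CGRP message of CALCA (387 bases) and that of CALCB (384 bases) were identical in 354 of 387 aligned columns (91.5%), and the longest run with no difference was 60 bases. The final 120 coding bases of both are shown from GENCODE release 29 transcripts, each ending at its stop codon. They were taken from the end of the best-scoring aligned stretch without gaps. Capitals mark the 4 bases that differ.
CALCA-202, coding bases 268 to 387: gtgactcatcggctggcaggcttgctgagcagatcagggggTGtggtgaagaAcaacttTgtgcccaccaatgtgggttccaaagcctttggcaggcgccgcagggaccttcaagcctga
CALCB-201, coding bases 265 to 384: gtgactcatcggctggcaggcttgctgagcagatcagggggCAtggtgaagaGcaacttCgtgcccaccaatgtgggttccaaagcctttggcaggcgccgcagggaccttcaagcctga
A read that maps equally well to both genes is not counted for either.

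Libraries held 19091085 to 36250314 reads on the reverse strand of genes, so 1 read was worth 0.0276 to 0.0524 CPM, the count scaled to a common library total, before the TMM scaling of the CPM values given here. Of 14582 genes tested with edgeR, 704 (4.83%) passed an adjusted p of 0.05, with 388 higher in co-culture and 316 lower. Scaling by total counts gave 310 higher and 572 lower. The count was 65 without control 2, 74 without co-culture 2, 123 without co-culture 1, 321 without co-culture 3 and 3069 without control 1. The HEK293 markers were present, with 8 of 9 at 1 CPM or more on average and PAX8 below it; their summed level was 2163 to 2256 CPM in the controls and 2602 to 2831 CPM in co-culture. Of these markers VIM and INA, both intermediate filament genes, were higher at log2 fold changes (log2FC, co-culture over control) of 0.40 and 0.38 (edgeR adjusted p 0.00793 and 0.0118). The 7 endothelial markers summed to 0.505 to 0.574 CPM in the controls and 0.701 to 0.903 CPM in co-culture, with TIE1 at 0 reads. The 5 leukocyte markers summed to 1.57 to 1.99 and 1.2 to 1.81 CPM, with CD3E at 0 reads. Of the 10 markers of neuroendocrine cells and sensory neurons, the usual sources of CALCA and CALCB, 7 were at 1 CPM or more, with sums of 42.2 to 45.7 CPM in the controls and 42.9 to 47.3 CPM in co-culture. TRPV1, a heat-sensitive ion channel, had the highest mean of these, at 18.2 CPM. Whether any of these marker levels bears on the results below was not tested.

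**Figure D1:**
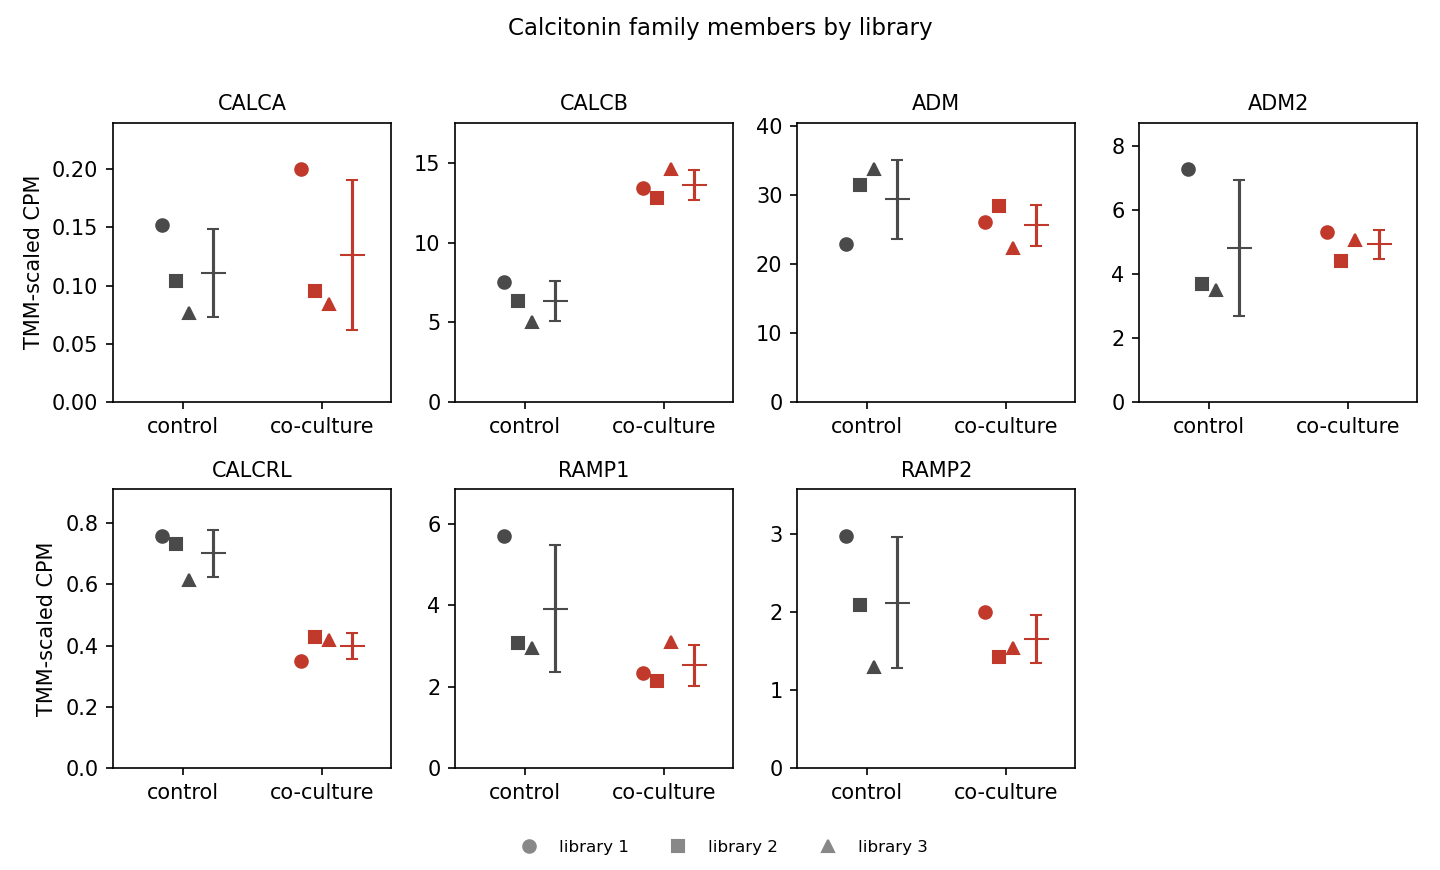
Level of each of the 7 family members in TMM-scaled CPM (vertical axis, from 0, a different range in each panel) in the 3 control and 3 co-culture libraries; points are libraries, and horizontal marks with bars are the group mean and SD. The groups of CALCB and of CALCRL do not overlap. Control library 1 has the highest control value of every member except ADM, of which it has the lowest.

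CALCB, the beta-CGRP gene, stood at 13.4, 12.8 and 14.6 CPM in co-culture libraries 1, 2 and 3. It stood at 7.53, 6.36 and 5.03 CPM in controls 1, 2 and 3. Every co-culture library was above every control, and the nearest values were 12.8 and 7.53 CPM. Group means were 13.6 ± 0.923 and 6.31 ± 1.25 CPM (SD, n = 3 each), a log2FC of 1.12 (SE 0.15) or 2.18-fold, resting on 1062 and 402 reads. That value gave it rank 5 among the 361 higher genes eligible for the ranking (adjusted p under 0.05 in edgeR, a mean of at least 5 CPM and groups without overlap), just inside the limit; PCSK1, with a lower mean, was outside it. AK5 stood before it at 1.26 and EMP1, at 1.09, was the first gene outside. In bulk RNA, more CALCB-expressing cells and more CALCB RNA per cell cannot be told apart.

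The difference of CALCB ran from 0.98 to 1.28 on the log2 scale over all 14 other settings tried. CALCB was chosen for its difference in these same libraries, so this range is a description and no support for the increase. The lowest value came without control 3, which had the lowest CALCB level, and the highest without control 1, which had the highest control level. Libraries also split by their share of reads on the unexpected strand, at a median of 0.124% and 0.211% in co-culture 2 and 3 and 1.57% to 1.75% in the other 4. Low-share libraries were all co-culture, so no comparison was possible within that class. With this class as a term in the fit, the group difference rests on co-culture 1 against the controls, and CALCB stood at 1.10.

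CALCA, the calcitonin and alpha-CGRP gene, lay near the detection floor. It had 4, 2 and 3 reads in co-culture libraries 1 to 3 and 3, 2 and 2 reads in controls 1 to 3, or 0.0767 to 0.2 CPM. A count of 0 would allow 3 reads, so these values lie near that floor, and such a bound covers counting error only. Too few reads were present for a test, and no fold change is given. CALCB took 99.2% of the reads assigned to either gene in co-culture (Wilson 95% interval 98.4% to 99.6%) and 98.3% in the controls (96.5% to 99.2%). These intervals pool 3 libraries, count reads only and overlap.

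ADM encodes adrenomedullin, a vasodilator peptide, and had the highest CPM of the members. Its levels were 26.1, 28.4 and 22.4 CPM after co-culture and 22.9, 31.5 and 33.8 CPM in the controls. The groups overlapped, since control 1 lay among the co-culture values and controls 2 and 3 lay above them. Means were 25.6 ± 3.01 and 29.4 ± 5.73 CPM, with a log2FC of -0.21 (SE 0.14) that did not pass edgeR's test (adjusted p 0.41). Without control 1 the difference was -0.36 (SE 0.09) and passed at an edgeR adjusted p of 0.0104. Over the 14 other settings its adjusted p ran from 0.0104 to 0.778.

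ADM2, the adrenomedullin 2 gene, stood at 5.3, 4.42 and 5.08 CPM after co-culture and at 7.28, 3.7 and 3.49 CPM in the controls. Control 1 was above every other library and controls 2 and 3 were below all of them, so the groups overlapped. Means of 4.94 ± 0.461 and 4.82 ± 2.13 CPM gave a log2FC of 0.05 (SE 0.26; adjusted p 0.937 in edgeR). The direction changed with the library left out. The difference was 0.46 without control 1 (edgeR adjusted p 0.0472), -0.00 without co-culture 1, -0.10 without control 2 and -0.15 without control 3. Its adjusted p ran from 0.0472 to 0.997 over the other settings.

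CALCRL, the receptor shared by CGRP and adrenomedullin, was at the edge of detection. It had 7, 9 and 15 reads in co-culture, or 0.35, 0.428 and 0.419 CPM, and 15, 14 and 16 reads in the controls, or 0.758, 0.73 and 0.614 CPM. All co-culture values lay below all control values. Group means were 0.399 ± 0.0424 and 0.701 ± 0.0766 CPM, and the log2FC of -0.78 (SE 0.33) had an unadjusted p of 0.0365 and an adjusted p of 0.183 in edgeR, so it did not pass. The filter asked for 0.482 CPM in 3 libraries, which all 3 controls and 0 of the co-culture libraries reached. CALCRL thus entered the test only through the group in which it was higher.

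RAMP1, the partner that makes CALCRL a CGRP receptor, stood at 2.35, 2.14 and 3.1 CPM after co-culture and at 5.71, 3.08 and 2.95 CPM in the controls. Control 1 was far above the other 5 libraries, and controls 2 and 3 lay close to co-culture 3. The log2FC was -0.60 (SE 0.28; adjusted p 0.224 in edgeR), with means of 2.53 ± 0.505 and 3.91 ± 1.56 CPM. It was -0.21 without control 1, -0.49 without co-culture 2 and between -0.79 and -0.55 without any other library, none of which passed.

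RAMP2, the partner that makes CALCRL an adrenomedullin receptor, stood at 2, 1.43 and 1.54 CPM after co-culture and at 2.98, 2.09 and 1.3 CPM in the controls. The groups overlapped, with the highest and the lowest value both among the controls. Its log2FC was -0.35 (SE 0.30; adjusted p 0.526 in edgeR), and it was -0.01 without control 1 and -0.63 without control 3. RAMP2-AS1, a transcript from the opposite strand beside RAMP2, had a log2FC of -0.50 (SE 0.19; adjusted p 0.155 in edgeR). Forward-strand reads were 4 against 258 reverse-strand reads for RAMP2, so few reads of the opposite strand lay over it.

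Of the 5 tested members other than CALCB, 0 passed an adjusted p of 0.05 in edgeR, beside 4.83% of all tested genes. At an unadjusted p under 0.05 there was 1 (CALCRL), beside 23.2% of all genes. DESeq2 and limma-voom also called 0 of them, beside 7.08% and 4.43% of all genes, with no adjusted p from DESeq2 for CALCRL. Without control 1 there were 2, ADM and ADM2, beside 20.8% of all genes. CALCB and CALCRL were the 2 tested members whose groups did not overlap, as did 29.3% of all tested genes; CALCB was chosen by that difference and CALCRL entered through its controls, so nothing is read from this count. A p that misses the threshold does not show that these genes were unchanged. With the strand class as a term, ADM, ADM2, CALCRL, RAMP1 and RAMP2 stood at -0.18, 0.15, -0.98, -0.73 and -0.07.

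**Figure D2:**
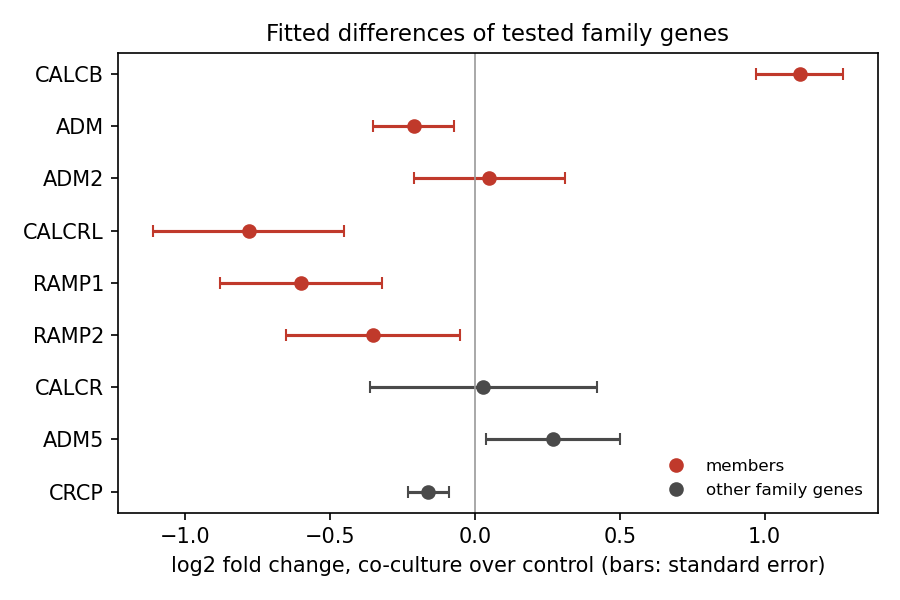
Fitted log2FC of co-culture over control (horizontal axis) for the 6 tested members and 3 other tested family genes; bars are standard errors from edgeR. CALCB, chosen for its increase, stands at 1.12. The receptor genes CALCRL, RAMP1 and RAMP2 lie at -0.78, -0.60 and -0.35 and did not pass in edgeR (adjusted p 0.183, 0.224 and 0.526). CALCRL entered the test only through its controls.

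**Figure D3:**
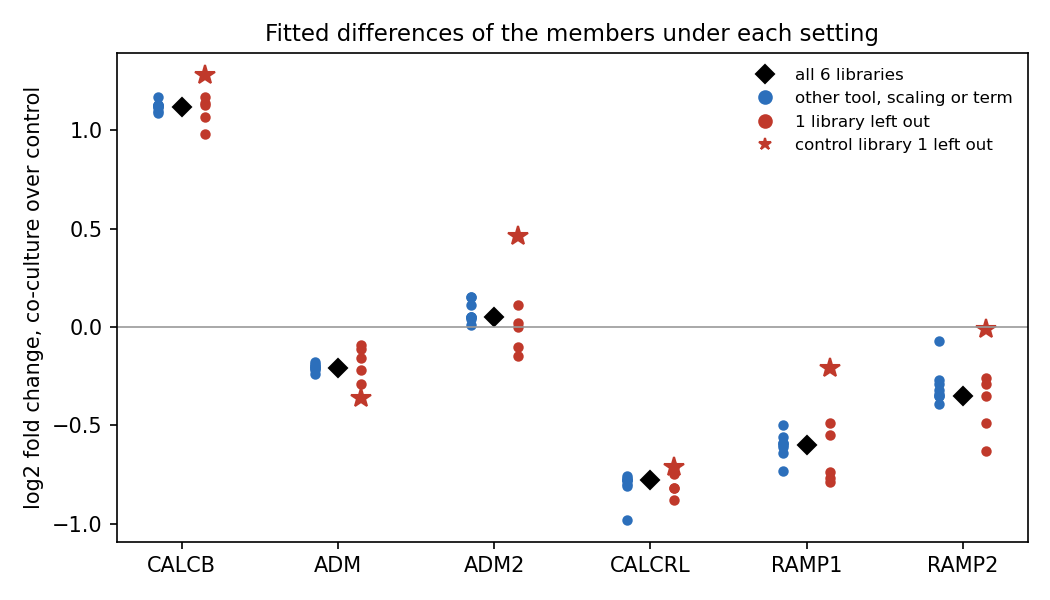
Log2 fold change of co-culture over control (vertical axis) of each tested member with all 6 libraries, with another tool, scaling or model term, and with 1 library left out; the star marks the fit without control library 1. Leaving out control 1 moves ADM2 from 0.05 to 0.46, RAMP1 from -0.60 to -0.21 and RAMP2 from -0.35 to -0.01. CALCB, chosen for its difference in these same libraries, runs from 0.98 to 1.28 over all settings.

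Levels can be compared between genes only per transcript length, here as CPM per kilobase of the principal transcript in GENCODE release 29, which need not be the gene models the authors counted. In co-culture the order was ADM at 13.6 ± 1.59, CALCB at 6.5 ± 0.44, RAMP1 at 2.78 ± 0.555, RAMP2 at 2.12 ± 0.392, ADM2 at 1.15 ± 0.108, CALCA at 0.138 ± 0.0701 and CALCRL at 0.0764 ± 0.00812 CPM per kilobase. In the controls it was ADM at 15.6 ± 3.04, RAMP1 at 4.3 ± 1.71, CALCB at 3.01 ± 0.598, RAMP2 at 2.72 ± 1.08, ADM2 at 1.13 ± 0.498, CALCRL at 0.134 ± 0.0147 and CALCA at 0.121 ± 0.0414. The SD ranges of RAMP1, CALCB and RAMP2 overlapped in the controls, as did those of CALCRL and CALCA in both groups and of RAMP1 and RAMP2 in co-culture. CALCB used a transcript of 2097 bases. With its transcript of 1070 bases it stood at 12.7 ± 0.863 in co-culture and 5.89 ± 1.17 in the controls, with SD ranges that overlapped those of ADM in co-culture and of RAMP1 in the controls. In both groups the mean of CALCRL per length was below that of either tested RAMP.

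Of the 7 other family genes, 3 could be tested and 0 passed in edgeR, DESeq2 or limma-voom (beside 4.83%, 7.08% and 4.43% of all tested genes). An unadjusted p under 0.05 in edgeR was reached by 1 (CRCP), beside 23.2% of all tested genes. CALCR, the calcitonin receptor, had 6 to 17 reads per library and a log2FC of 0.03 (SE 0.39, adjusted p 0.97 in edgeR). DESeq2 gave no adjusted p for CALCRL at similar counts, so whether CALCR could have passed in DESeq2 is not known. ADM5, an adrenomedullin-like gene, stood at 3.21 ± 0.596 CPM after co-culture and 2.62 ± 0.656 CPM in the controls (log2FC 0.27, SE 0.23; adjusted p 0.516 in edgeR). CRCP, known both as a CGRP receptor component and as a subunit of RNA polymerase III, stood at 53.9 ± 2.67 and 60.5 ± 2.41 CPM (-0.16, SE 0.07; adjusted p 0.168 in edgeR). RAMP3, IAPP, which encodes amylin, and GPR182 had 0 reads in all 6 libraries, which allows up to 0.0838 to 0.156 TMM-scaled CPM depending on the library. ACKR3, a scavenger receptor that also binds adrenomedullin and is listed under its older symbol CXCR7, had 1 to 5 reads per library.

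The largest difference in the wider pathway was in PCSK1, which encodes prohormone convertase 1/3, a protease that cuts peptide hormone precursors in the regulated secretory pathway. It stood at 7.61, 6.6 and 8.02 CPM in co-culture libraries 1, 2 and 3 and at 2.07, 1.2 and 2.07 CPM in controls 1, 2 and 3. The lowest co-culture value was above 3 times the highest control value. PCSK1 rose from 1.78 ± 0.503 to 7.41 ± 0.726 CPM (SD, n = 3 each), a log2FC of 2.04 (SE 0.21; adjusted p 0.000908 in edgeR) or 4.12-fold, higher in 3 of 3 co-culture libraries. The call held in each of the 14 other settings, at 1.84 to 2.18 on the log2 scale and with adjusted p-values from 7.39e-14 to 0.0356. With the strand class as a term it stood at 2.08 (edgeR adjusted p 0.0356).

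Of the 12 tested enzymes that process peptide precursors, 1 passed as higher, PCSK1 (beside 2.66% of all tested genes), and 0 as lower (beside 2.17%). An unadjusted p under 0.05 in edgeR was reached by 6 of the 12, beside 23.2% of all tested genes. The median log2FC of the 12 was 0.15, with a range from -0.58 to 2.04. Of the 12, 9 were positive, beside 7229 of all 14582 tested genes. PAM, the enzyme that amidates the carboxyl end of CGRP and adrenomedullin, was at 243, 237 and 235 CPM after co-culture and 214, 210 and 214 CPM in the controls. Its groups did not overlap, as for 29.3% of all tested genes, but the log2FC of 0.16 (SE 0.05) had an edgeR adjusted p of 0.107. FURIN, a convertase of the constitutive pathway, and CPD, a carboxypeptidase that trims precursors, had log2FC values of 0.16 and 0.24 (edgeR adjusted p 0.144 and 0.103). Of the 4 tested peptide-degrading enzymes MME, ECE1, ECE2 and IDE, 0 passed in edgeR, DESeq2 or limma-voom (beside 4.83%, 7.08% and 4.43% of all tested genes). Their log2FC values ran from -0.15 to 0.08, and 0 had an unadjusted p under 0.05 in edgeR, beside 23.2% of all tested genes.

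**Figure D4:**
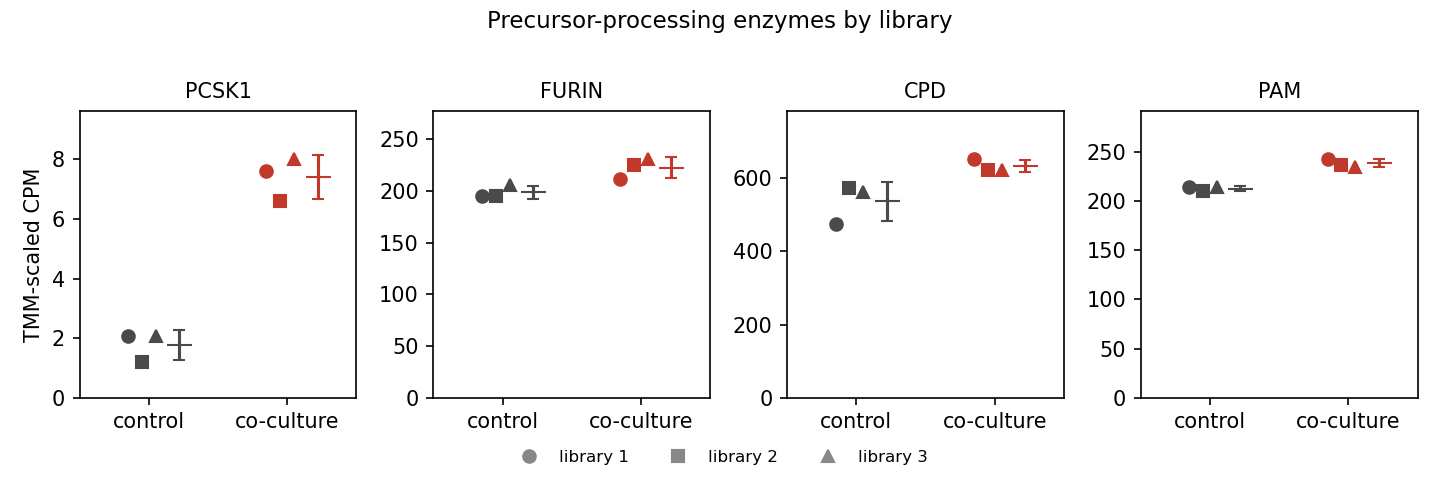
Level of 4 precursor-processing enzymes in TMM-scaled CPM (vertical axis, from 0, a different range in each panel) in the 3 control and 3 co-culture libraries; points are libraries, and horizontal marks with bars are the group mean and SD. PCSK1 rises from 1.78 to 7.41 CPM, while FURIN, CPD and PAM differ by less than a log2FC of 0.25 and did not pass the test. The 4 shown have the smallest edgeR adjusted p of the 12 tested enzymes. Of the 12, 3 had negative log2FC values, down to -0.58.

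Below the receptor, 27 of the 30 listed genes of Gs and cAMP signalling could be tested and 1 passed, beside 4.83% of all tested genes. ADCY7, an adenylate cyclase that makes cAMP, rose from 44.3 ± 4.32 to 57.9 ± 2.82 CPM (log2FC 0.39, SE 0.08, adjusted p 0.0241 in edgeR). All its co-culture libraries were above all controls, and groups did not overlap for 29.3% of all tested genes. The call was lost without co-culture 1, 2 or 3 or control 2 (0.43, 0.37, 0.38 and 0.38, edgeR adjusted p 0.0813 to 0.157) and with the strand class as a term (0.31, edgeR adjusted p 0.341). It was also lost with the replicate number as a term (0.39, edgeR adjusted p 0.083). ADCY5, another cyclase, had a log2FC of -0.37 (SE 0.13; adjusted p 0.108 in edgeR), and CRTC3, a CREB coactivator, one of -0.15 (edgeR adjusted p 0.154). The median of the 27 was 0.03, with 16 positive and 11 negative, beside 7229 positive of all 14582 tested genes. Of 8 arrestins, receptor kinases and scaffolds that switch such receptors off, 0 passed in edgeR, DESeq2 or limma-voom (beside 4.83%, 7.08% and 4.43% of all tested genes). An unadjusted p under 0.05 in edgeR was reached by 4 of the 8, beside 23.2% of all tested genes. GRK5 and ARRB1 had the smallest p-values, at -0.28 and -0.29 (edgeR adjusted p 0.136 and 0.14).

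Among 17 tested genes that cAMP and CREB are known to induce, 11 had positive and 6 negative log2FC values, beside 7229 and 7353 of all 14582 tested genes. An adjusted p under 0.05 was reached by 2 higher genes (beside 2.66% of all tested genes) and 0 lower ones (beside 2.17%). NR4A1, an immediate-early nuclear receptor, rose from 8.72 ± 1.99 to 16.9 ± 0.636 CPM (log2FC 0.96, SE 0.14; adjusted p 0.00669 in edgeR). It missed the threshold without co-culture 1, co-culture 2 or control 2 (0.93, 0.98 and 0.93, edgeR adjusted p 0.0521 to 0.0609) and with the strand class as a term (1.02, edgeR adjusted p 0.131). The other was FOSB, an AP-1 subunit, at 1.32 (edgeR adjusted p 0.0154). FOSB held rank 3 in the ranking of increases that gave CALCB rank 5, and the list was made with earlier results of these data known. Its place among the called genes of this list is thus a description. FOSB kept the call without co-culture 3 and lost it without each of the other 5 libraries, at 1.14 to 1.39 (edgeR adjusted p 0.0636 to 0.121), and with the strand class as a term (1.49, edgeR adjusted p 0.136). PDE4B, a cAMP-degrading phosphodiesterase, stood at 4.71 ± 0.698 against 3.03 ± 1.12 CPM (log2FC 0.66, SE 0.24; adjusted p 0.137 in edgeR). BDNF, a growth factor gene with a known CREB site, had a log2FC of -0.47 (SE 0.13, adjusted p 0.0674 in edgeR). Its groups did not overlap, as for 29.3% of all tested genes. The genes of this list also respond to other signals, and the list median was 0.15.

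ADM is a known target of hypoxia-inducible factors, and its direction can be set beside other such targets. All 15 tested hypoxia targets had positive log2FC values, as did 7229 of all 14582 tested genes; their median was 0.34 beside -0.00 over all genes, while ADM stood at -0.21. Log2FC values of the 15 ran from 0.06 to 1.29, and the gene at 1.29 did not pass. An unadjusted p under 0.05 in edgeR was reached by 8 of the 15, beside 23.2% of all tested genes. Of the 15, 3 passed, all higher (beside 2.66% of all tested genes). They were PDK1, P4HA2 and ALDOA, at 0.43, 0.40 and 0.32 (edgeR adjusted p 0.0345, 0.0359 and 0.0417). Each lost its call without co-culture 1, 2 or 3 or control 2, at log2FC values from 0.27 to 0.46, and ALDOA also without control 3 (0.26, edgeR adjusted p 0.0736). All 3 also missed the threshold with total counts (0.39, 0.37 and 0.29, edgeR adjusted p 0.0569, 0.0595 and 0.058) and with the strand class as a term (0.48, 0.36 and 0.27, edgeR adjusted p 0.263, 0.337 and 0.384). Of the regulators USF1, USF2, FOXA2 and REST, known to act on CALCA or on neural genes, 0 of 4 passed in edgeR, DESeq2 or limma-voom (beside 4.83%, 7.08% and 4.43% of all tested genes). Their log2FC values ran from -0.18 to 0.09, and 0 of 4 had an unadjusted p under 0.05 in edgeR, beside 23.2% of all tested genes.

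Over all 87 tested pathway genes outside the members, 7 were higher (beside 2.66% of all tested genes) and 0 lower (beside 2.17%), and the median log2FC was 0.08. The number called was 1 without co-culture 1, co-culture 2 or control 2, 3 without co-culture 3 and 28 without control 1, of which 24 were higher and 4 lower. Without control 1, 20.8% of all tested genes were called.

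The 4 measured genes beside CALCA and CALCB on chromosome 11 had edgeR adjusted p-values of 0.234 or more. In the order of the RefSeq annotation of GRCh38.p14, the measured genes before CALCA are PDE3B and CYP2R1, and those after CALCB are INSC and SOX6. PDE3B and CYP2R1 had log2FC values of 0.02 (SE 0.12) and 0.03 (SE 0.12), with edgeR adjusted p-values of 0.933 and 0.91. INSC, at 8 to 24 reads per library, had 0.25 (SE 0.36; adjusted p 0.716 in edgeR), and SOX6 had -0.20 (SE 0.09; adjusted p 0.234 in edgeR).

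Among 11646 genes averaging 5 CPM or more, the profiles most like CALCB over the 6 libraries were TRIM45, ATP2B4, AP3M2, TM2D3 and SLC43A2. Pearson correlations of their log2 CPM with CALCB were 0.998, 0.995, 0.994, 0.992 and 0.992. The 6 points share the division into groups as well as library depth, so a gene that is steady within groups and higher in co-culture scores high by construction, and no p is given. All 5 had every co-culture library above every control, and groups did not overlap in either direction for 29.3% of all tested genes. The 5 were picked for likeness to CALCB, whose groups do not overlap, so nothing is read from this. The log2FC values of the 5 were smaller than that of CALCB, at 0.45, 0.32, 0.18, 0.10 and 0.69. AP3M2 and TM2D3 did not pass in edgeR (adjusted p 0.141 and 0.312). The correlation of ADM with CALCB was -0.651.

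Promoter sequences of 4 members, CALCA, ADM, ADM2 and CALCRL, were found in the RefSeq table of GRCh38.p14, which gives 250 bases before and 50 bases after each start; CALCB, RAMP1 and RAMP2 were not found there. Both strands were searched for the cAMP response element TGACGTCA and its shorter core TGACG, the AP-1 site TGANTCA, the hypoxia core ACGTG, the E-box CACGTG and the antioxidant element TGACNNNGC. The shorter core lies inside the full element, and the hypoxia core lies inside the E-box. These letters occurred in 1.85%, 24.6%, 7.71%, 21.4%, 7.26% and 13.3% of all 35116 promoters of this length. Those promoters were selected by length only, with no selection by genome build. CALCA held 1 shorter core, 110 bases before its start, and CALCRL held 1 antioxidant element on the reverse strand, 87 bases before its start. No other match was found in the 4 windows, including the ADM window for the hypoxia core. The matches are shown in capitals, 5′ to 3′ on the strand of the gene.
CALCA, chr11:14972432-14972486, minus strand: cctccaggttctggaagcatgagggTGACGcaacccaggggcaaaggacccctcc
CALCRL, chr2:187448306-187448364, minus strand: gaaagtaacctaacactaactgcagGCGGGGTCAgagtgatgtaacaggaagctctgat
A match describes the letters only.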

How the data were processed

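Per the labels' protocols, RNA of 6 HEK293 samples was extracted with TriPure and sequenced from stranded Illumina mRNA libraries. The authors deposited raw counts of reads per gene in STAR's layout, with STAR 2.53a, FastQC and the build hg18 named in the submitters' processing notes. The annotation release is not given in the sources used here. Reverse-strand counts were used; 4 summary lines, 24.2% to 28.5% of reads, stayed out. Multimapping reads, 6.48% to 8.42%, were not counted for any gene.

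Groups and numbers came from the sample titles. Within groups, chi-square per degree of freedom was 4.75 to 18.8, so all libraries were counted separately. Counts were fitted in edgeR 4.0.16 (R 4.3.3): filterByExpr at a minimum count of 10, TMM scaling, robust quasi-likelihood F test, Benjamini-Hochberg adjustment over 14582 genes, threshold 0.05. SEs are the absolute log2 fold change over the square root of F. The fit was tested on simulated data. Alternatives were DESeq2 1.42.0, limma-voom 3.58.1, other scalings, no filter, unstranded counts, the strand class, a replicate block and leaving out each library.

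The members and lists were chosen with earlier results of these data known. Named genes were the members, the other family genes, up to 4 genes with the smallest adjusted p per list, 2 neighbours on each side and the 5 profiles most like CALCB. All listed genes were found, 4 under an older symbol. Names and gene order came from RefSeq, transcripts from GENCODE release 29.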

Additional observations from a re-analysis of the deposited data

How the results depend on the processing

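The 704 genes called in edgeR became 29 with the strand class as a term, 164 with the replicate block and 65 to 3069 when 1 library was left out. The 7 pathway genes called became 4 with total counts, 1 with the strand class, 3 with the replicate block and 1 to 28 when 1 library was left out. DESeq2 called 5 hypoxia targets where edgeR called 3, and 2 precursor-processing enzymes where edgeR called 1. Over all tested genes DESeq2 called 7.08% and edgeR 4.83%. Members called other than CALCB stayed at 0 in all settings except without control 1, giving a range of 0 to 2 over the fits that left out a library. In those fits the log2 fold change ran from -0.36 to -0.09 for ADM, from -0.15 to 0.46 for ADM2, where the sign changed in 3 of them, from 0.98 to 1.28 for CALCB, from -0.88 to -0.71 for CALCRL, from -0.79 to -0.21 for RAMP1 and from -0.63 to -0.01 for RAMP2. Leaving out a library also leaves fewer samples; otherwise the cause of these changes was not tested. Deviations of same-numbered libraries of the 2 groups from their group means had r of -0.0691, -0.189 and -0.181 over 11647 genes. No library of the co-culture group correlated best with its own number. Deviations from means of only 3 libraries constrain one another, so these values cannot decide whether the numbers pair the samples. The replicate block changed no call of a member, but ADCY7, PDK1, P4HA2 and ALDOA missed the threshold with it (0.39, 0.43, 0.41 and 0.32, edgeR adjusted p 0.083, 0.0642, 0.0907 and 0.118). CALCA, with 16 reads in all, had too few for the filter, and CALCRL and RAMP2 rest on 76 and 258 reads in all.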
